A study of Rattus norvegicus with 113 samples.

Results

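Cortical gene expression 3 months after traumatic brain injury (TBI) was compared with sham injury in 8 rats, 4 per group, taken by their labels from a series of 113 arrays. All were adult male Sprague-Dawley rats, and each array holds the RNA of 1 rat. TBI rats received a parasagittal fluid percussion injury, a pressure pulse onto the exposed dura, which the labels grade as moderate and the study's methods as severe. Sham rats underwent the same anesthesia and opening of the skull without the pulse. The model also held 4 naive rats at 3 months, neither anesthetized nor handled, which makes 12 arrays. The tissue was a small piece of cortex cut near the injury site, and the ages of the rats are not given in the sources used here. The comparison asks which genes still differed between injured and sham-operated cortex months after a single injury.

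After a percussion injury, rodent cortex is known for lasting glial responses. Reactive astrocytes raise filament proteins such as Gfap, and microglia and infiltrating macrophages clear debris and express phagocytic, complement and antigen presentation genes. The complement cascade tags synapses and debris for removal. MHC class I molecules, named RT1 in the rat, present peptides from inside the cell after the proteasome has cut them and the Tap transporter has carried them to the endoplasmic reticulum.

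Each array carried 45598 probes, of which 21109 could be given the RefSeq name of 1 of 16581 genes. Between 46.4% and 55.8% of probes per array were well above background, and no spot was saturated. Over the probes well above background on all 12 arrays, pairs of arrays that include sham replicate 1 correlated at 0.971 to 0.980, and all other pairs at 0.974 to 0.991. That array also held 792 spots flagged as non-uniform, against 2 to 388 on the other arrays, and such spots were left out. TBI and sham arrays shared 1 slide, but sham arrays filled one column of it and TBI arrays the other, so column and injury cannot be told apart. Naive arrays were on another slide, so slide and group cannot be told apart in any comparison with them. Values below are log2 signals relative to the median of their array. Slc17a7, the vesicular glutamate transporter of cortical neurons, lay between 4.40 and 4.98 on all 12 arrays, and Tbr1, a transcription factor of cortical projection neurons, was also well above background throughout.

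No probe passed the test of TBI against sham (limma, Benjamini-Hochberg adjusted p under 0.05; 0% of 21997 probes), and the smallest adjusted p was 0.323. At an unadjusted p under 0.05, 966 probes differed. With a fold of at least 1.4 as well, the thresholds of the study's methods, 288 probes (1.31%) were higher and 366 (1.66%) lower in TBI. This split turned on sham replicate 1, without which 143 were higher and 952 lower. Read from 1 probe per gene, 136 of 10509 named genes (1.29%) were higher and 145 (1.38%) lower. For 75 genes (0.714%) every TBI array lay above every sham array, and for 80 (0.761%) below. Both thresholds and separate groups were met by 33 higher and 43 lower genes. The median 95% interval of a difference, without adjustment, was ± 0.41 on the log2 scale, a fold of 1.33 in either direction. Smaller differences were mostly not detectable with this number of arrays, and larger ones could also miss the adjusted threshold. A 2.27-fold difference, that of the class I gene RT1-A3, had an adjusted p of 0.323 in limma. Each gene called higher or lower here is so by its fold and its unadjusted limma p, and none passed adjustment.

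**Figure D1:**
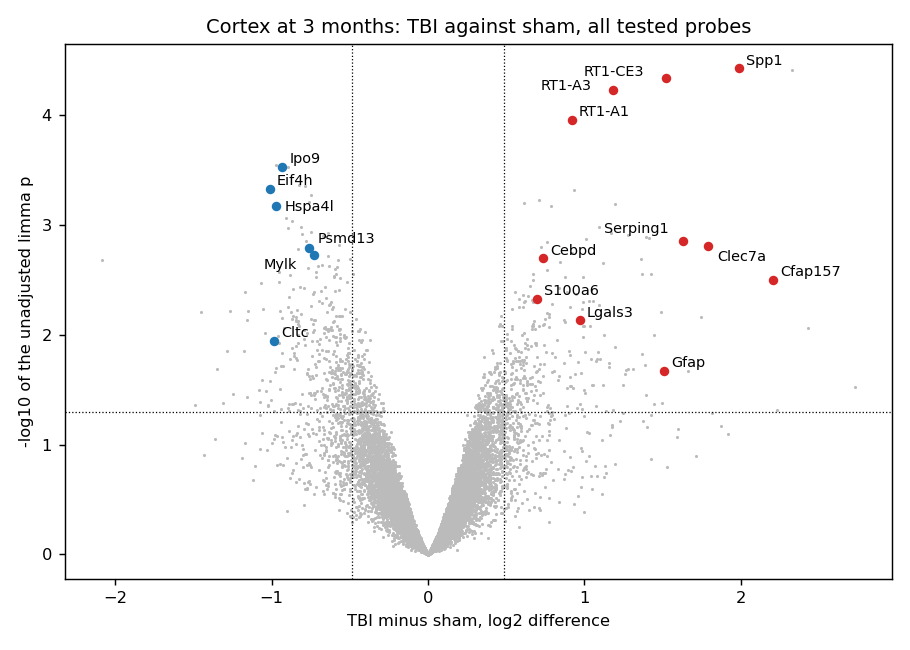
Each point is 1 of the tested probes, with the TBI minus sham difference (log2) on the x axis and the negative log10 of the unadjusted limma p on the y axis. Dotted lines mark a fold of 1.4 and a p of 0.05, and coloured points are genes named in the text, with Spp1, Clec7a and Cfap157 placed by measured signals although no sham array was above background for them: Spp1 and RT1 class I genes lie at the top right, and no probe passed adjustment.

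The smallest p belonged to Spp1, osteopontin, a secreted phosphoprotein that phagocytic microglia and macrophages make after injury. Its level was 0.72, 1.71, -0.14 and -0.41 on the TBI arrays and -1.58, -1.66, -1.16 and -1.67 on the sham arrays. Every TBI array was above every sham array, and the naive arrays, at -1.004 to -0.71, lay between them. No sham array was well above background, so its sham level is not measured and the difference is a bound. Spp1 was at least 2.24-fold higher in TBI (limma, adjusted p = 0.323), or at least 1.68-fold without TBI replicate 2. For these bounds each sham array was set at the lowest signal it held well above background, or at its own value where that was higher.

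Clec7a, the phagocytic receptor dectin-1, read -0.04, 1.80, -0.70 and -0.85 in TBI and -1.07, -1.90, -2.19 and -1.78 in sham. It too was well above background on all TBI arrays and on no sham array, and at least 1.68-fold higher (limma, adjusted p = 0.887), or at least 1.12-fold without TBI replicate 2. Lgals3, galectin-3, a lectin of activated phagocytes, read 2.37, 3.83, 2.68 and 2.71 in TBI and 1.15, 2.46, 2.17 and 1.94 in sham. Its lowest TBI array lay below its highest sham array, and the difference was 0.97 ± 0.31 (log2, SE), with 1.01 on its second probe. Gpnmb, a lysosomal glycoprotein of phagocytes, differed by 0.87 ± 0.33.

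These 4 genes were the higher ones among 16 tested members of the list of disease-associated microglia, and none was lower, where 1.29% of all named genes were higher and 1.38% lower. Spp1 and Clec7a were tested only because their TBI arrays were above background, so the count is a description. The median difference of the list was 0.27, against 0.03 over all named genes. Apoe, Ctsb, Ctsd, Lyz2 and Cd63, further lysosomal and lipid-handling members, differed by 0.05 to 0.25, with unadjusted limma p-values of at least 0.151. Of 22 tested genes of microglia and macrophages, 20 had a positive difference, against 6054 of 10509 over all named genes, with a list median of 0.25. Past both thresholds 2 were higher (1.29% over all named genes). Cd68, a lysosomal protein of phagocytes, differed by 0.84 ± 0.33. Cd14, the lipopolysaccharide co-receptor, read 1.25, 1.71, 1.58 and 1.45 in TBI and 1.22, 1.14, 0.56 and 0.38 in sham. The groups were separate, but the naive arrays, at 1.28 to 1.84, lay with TBI.

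The homeostatic microglial genes P2ry12, Cx3cr1 and Tmem119 differed by 0.23, 0.20 and 0.09. Aif1, the general microglial marker Iba1, differed by 0.22 ± 0.19. The summed linear signal of the microglia and macrophage list, in units of the array median, ranged from 759 to 1101 in TBI, 517 to 854 in sham and 723 to 865 in naive arrays. That of the neuron and synapse list ranged from 9359 to 9735 in TBI, 7273 to 11470 in sham and 8661 to 11210 in naive. A low sham minimum was therefore not particular to the microglial list. In bulk tissue, a change in the number of cells of a type and a change in RNA per cell cannot be told apart.

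Of 19 tested genes of reactive astrocytes, 8 were higher past both thresholds (1.29% over all named genes) and none was lower (1.38%), with a median difference of 0.42. Gfap, the astrocyte filament protein, read 6.21, 8.42, 7.01 and 5.26 in TBI and 5.33, 4.68, 4.52 and 6.33 in sham. The groups overlapped, with TBI replicate 4 below 2 of the sham arrays. The difference was 1.51 ± 0.58, a 2.84-fold difference (limma, adjusted p = 1), and without TBI replicate 2, the highest array, it was 0.94 and no longer past an unadjusted p of 0.05, as also without sham replicate 2 (1.33) or 3 (1.28). Cd44, the hyaluronan receptor, read 2.06, 3.33, 2.09 and 0.97 in TBI and 0.51, 1.27, 1.08 and 1.08 in sham, with 1 TBI array inside the sham range and a difference of 1.12 ± 0.38, which was 0.72 without TBI replicate 2.

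Cebpd, a transcription factor of the acute phase response, read 4.21, 4.97, 4.27 and 4.26 in TBI and 3.26, 3.95, 3.72 and 3.84 in sham. S100a6, a calcium-binding protein, read 4.53, 4.94, 4.29 and 4.05 in TBI and 3.53, 4.01, 3.88 and 3.60 in sham. Both were separate between the groups, and naive arrays lay with sham for S100a6 (3.33 to 4.01) and below all TBI arrays for Cebpd (3.87 to 4.18). The other members past both thresholds were Vim (0.60) and Synm (0.58), intermediate filament proteins, the small heat shock protein Hspb1 (0.55) and Maob, monoamine oxidase B (0.50).

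Stat3, a signal transducer of glial activation, did not separate the groups, with 4.09 on TBI replicate 1 and 1.46 to 2.39 on the other TBI arrays against 1.59 to 2.59 in sham. Of the 17 genes of astrocyte identity none was past the thresholds in either direction, and their median was 0.13. TBI replicate 2 was the highest TBI array for Spp1, Clec7a, Lgals3, Serping1, Gfap, Cd44, Cebpd and S100a6.

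**Figure D2:**
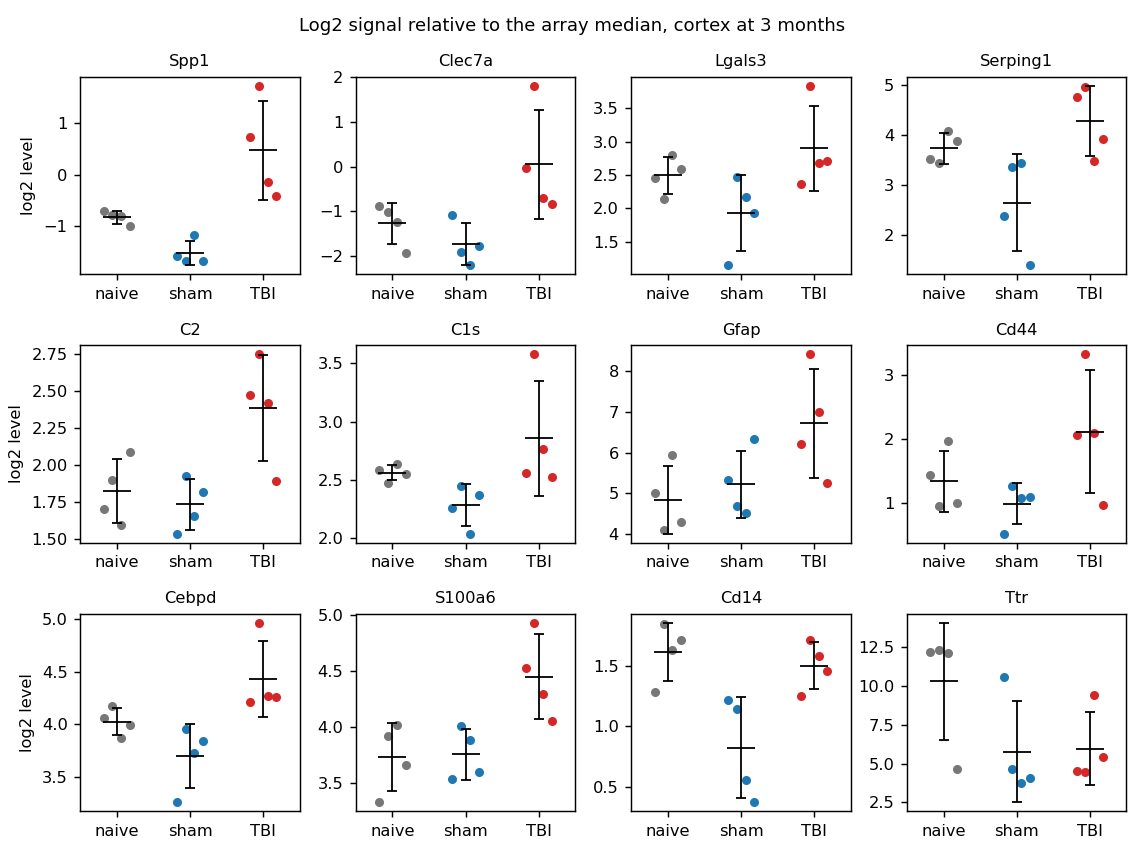
Each panel shows 1 gene in the cortex at 3 months, with log2 signal relative to the array median on the y axis and naive, sham and TBI rats on the x axis; each point is 1 rat, the horizontal bar the mean and the error bar 1 SD of the 4 rats. TBI points lie above all sham points for Spp1, Clec7a, Serping1, C1s, Cebpd, S100a6 and Cd14, overlap with them for Lgals3, C2, Gfap and Cd44, and are mixed with them for Ttr, a marker of choroid plexus.

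Complement genes were higher past both thresholds for 4 of 20 tested members (1.29% over all named genes) and lower for none (1.38%), with a median difference of 0.31. Serping1, the C1 inhibitor, read 4.76, 4.97, 3.48 and 3.92 in TBI and 2.39, 3.37, 3.45 and 1.395 in sham. TBI replicate 3 was barely above sham replicate 3, and the naive arrays, at 3.44 to 4.09, overlapped with the lower TBI arrays. The difference was 1.63 ± 0.41 (limma, adjusted p = 0.873).

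C2, the protease of the classical C3 convertase, read 2.48, 2.75, 2.42 and 1.89 in TBI and 1.54, 1.93, 1.66 and 1.82 in sham, a difference of 0.65 ± 0.19 with 1 TBI array inside the sham range. C1s, a protease of the C1 complex, was separate, with 2.56, 3.58, 2.77 and 2.53 in TBI and 2.26, 2.45, 2.04 and 2.37 in sham, and its probes differed by 0.58 and 0.59; without TBI replicate 2 the first differed by 0.34, under both thresholds. C4a differed by 0.68 ± 0.29 and its near-identical partner C4b by 0.55 ± 0.29; probes may not tell these copies apart. The C1q chains C1qa, C1qb and C1qc differed by 0.18, 0.29 and 0.46. C3, the central component, differed by 0.55 ± 0.42, its groups overlapped, and sham replicate 3 (5.29) was its second highest value after TBI replicate 2 (5.58). Without sham replicate 3 it differed by 0.93, past both thresholds, and without TBI replicate 2 by 0.25.

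MHC class II genes, which present peptides taken up from outside the cell, had a median difference of 0.39 over 8 tested members, 2 of them higher (1.29% over all named genes) and none lower past both thresholds. Cd74, the invariant chain, differed by 0.62 ± 0.19 and RT1-Db1 by 0.49 ± 0.19. RT1-Da, RT1-Bb, RT1-DMa and RT1-DMb differed by 0.28 to 0.46 with unadjusted limma p-values of 0.057 to 0.147, Ctss by 0.11 and RT1-Db2 by -0.35 ± 0.59, with sham replicate 1 at 3.43.

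Class I genes had p-values among the smallest after Spp1. RT1-CE3 read 3.75, 3.54, 3.01 and 3.32 in TBI and 1.46, 1.69, 2.80 and 1.58 in sham, a difference of 1.52 ± 0.27 (limma, adjusted p = 0.323). RT1-A3 read 6.44, 6.06, 5.72 and 5.90 in TBI and 4.60, 4.39, 5.42 and 4.98 in sham, a difference of 1.18 ± 0.21 (adjusted p = 0.323). RT1-A1 read 7.44, 7.02, 6.95 and 6.81 in TBI and 6.08, 5.76, 6.46 and 6.23 in sham, a difference of 0.92 ± 0.18 (adjusted p = 0.484).

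All 3 were separate between TBI and sham. RT1-CE15 gave the largest class I difference, 2.33 ± 0.40, on its dimmer probe (adjusted p = 0.323), and 0.84 ± 0.24 on the brighter one. Class I genes are near-identical, so a probe may read several of them and the gene assignment is uncertain. Over 31 tested class I probes of 21 genes, 9 were higher past both thresholds and 0 lower, where 1.31% of all tested probes were higher and 1.66% lower. In 6 of the 31 every TBI array lay above every sham array, as did 0.714% of all named genes, read from 1 probe each.

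The promoters of 3 of these genes and of RT1-A2, which did not differ (-0.12 ± 0.17), are shown because class I promoters are known to share an enhancer read by NF-kB and interferon factors. They are RefSeq sequences of the build GRCr8, 250 bases before to 50 after the start, all on chromosome 20: RT1-A1 at chr20:4906959-4907258 (+), RT1-A3 at chr20:4849201-4849500 (+), RT1-CE3 at chr20:3525109-3525408 (-) and RT1-A2 at chr20:4872621-4872920 (+). Capitals mark matches, on either strand, to the palindromic NF-kB site of class I enhancers (4 G, ATT, 4 C), GAANNGAAA (an interferon-stimulated response element core), TGACG (the core of a cAMP response element) and CCAAT.
RT1-A1: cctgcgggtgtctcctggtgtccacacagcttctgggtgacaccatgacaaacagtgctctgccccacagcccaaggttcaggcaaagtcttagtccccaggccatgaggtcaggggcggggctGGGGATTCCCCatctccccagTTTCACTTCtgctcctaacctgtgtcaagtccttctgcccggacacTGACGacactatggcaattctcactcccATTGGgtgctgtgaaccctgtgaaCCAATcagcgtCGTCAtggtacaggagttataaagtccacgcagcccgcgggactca
RT1-A3: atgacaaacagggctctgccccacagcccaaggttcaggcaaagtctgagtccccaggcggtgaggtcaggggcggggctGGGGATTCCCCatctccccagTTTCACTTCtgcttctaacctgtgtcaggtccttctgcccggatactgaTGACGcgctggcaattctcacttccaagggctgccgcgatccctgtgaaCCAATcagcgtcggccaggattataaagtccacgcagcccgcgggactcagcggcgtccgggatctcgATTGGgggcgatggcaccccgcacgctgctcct
RT1-CE3: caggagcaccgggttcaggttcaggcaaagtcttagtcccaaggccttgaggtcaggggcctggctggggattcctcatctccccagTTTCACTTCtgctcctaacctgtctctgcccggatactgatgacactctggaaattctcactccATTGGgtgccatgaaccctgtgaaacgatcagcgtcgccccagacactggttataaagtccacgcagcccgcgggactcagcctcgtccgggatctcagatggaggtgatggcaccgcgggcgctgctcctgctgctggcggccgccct
RT1-A2: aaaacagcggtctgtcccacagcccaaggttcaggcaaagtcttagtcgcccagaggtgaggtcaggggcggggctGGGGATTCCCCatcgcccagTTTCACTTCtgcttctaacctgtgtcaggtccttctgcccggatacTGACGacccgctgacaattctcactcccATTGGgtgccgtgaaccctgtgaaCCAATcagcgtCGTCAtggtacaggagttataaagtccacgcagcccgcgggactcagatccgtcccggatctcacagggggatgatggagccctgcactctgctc

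The NF-kB site was found in 0.0627% of 33469 RefSeq rat promoters of this length and in 8 of 31 class I promoters. It was in the windows of RT1-A1, RT1-A3 and RT1-A2 but not, letter for letter, in that of RT1-CE3. GAANNGAAA was in 8.54% of all promoters and in 13 of the 31, and in all 4 shown. TGACG (21.2% of all, 9 of 31) and CCAAT (37.5% of all, 21 of 31) were also counted. RT1-A2, which holds all 4 motifs, did not separate the groups, with 5.60 to 5.95 in TBI and 5.76 to 6.15 in sham. A match is a description of letters only.

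Naive values are given for reference, but naive arrays lay on another slide, so slide and group cannot be told apart. RT1-CE3 read 2.85 to 3.46 in naive rats, RT1-A3 5.75 to 5.86 and RT1-A1 6.75 to 6.90, all within or near the TBI range and above all sham arrays. Over the 31 probes the median difference was 0.32 for TBI minus sham, -0.37 for sham minus naive and -0.03 for TBI minus naive. Over all tested probes these medians were 0.03, -0.11 and -0.08. Sham had the lowest mean of the 3 groups for 21 of the class I probes, and no such count over all probes is given here. These comparisons share arrays. Against naive, 2 class I probes fell in sham past adjustment in limma, where 94 of 21328 probes (0.441%) were called and 11 fell. They were the brighter RT1-CE3 probe (-1.35, limma, adjusted p = 0.0383) and the dimmer RT1-CE15 probe (-2.02, adjusted p = 0.0387). No class I probe was called in TBI against naive, where 0.596% of all probes were.

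Sham replicate 3 was the highest sham array for all 9 higher class I probes. Without it, RT1-CE15 (adjusted p = 0.00256), RT1-CE3 (0.00459) and RT1-A3 (0.0358) passed the limma test of TBI against sham. Their differences were then 2.82, 1.83 and 1.38. Leaving out the highest sham array must enlarge these differences, and none of these probes was called when any other single array was left out. In naive rats of other intervals, which had no surgery, RT1-CE3 ranged from 0.92 to 3.68 at 24 hr, 0.88 to 1.30 at 2 weeks, 1.02 to 3.66 at 6 months and 1.25 to 3.88 at 1 year. The range was wide at 3 of these intervals and narrow at 2 weeks, as it was at 3 months, where naive rats were at a different level.

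**Figure D3:**
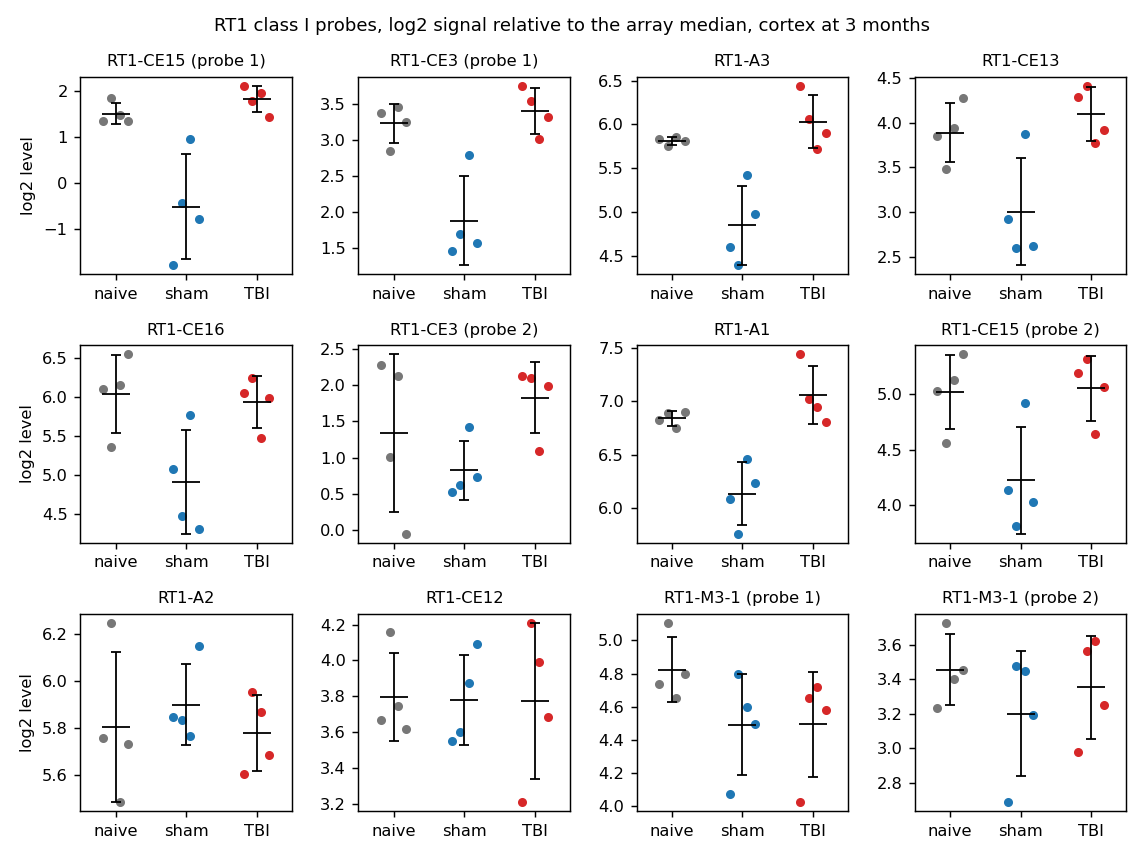
Each panel shows 1 RT1 class I probe in the cortex at 3 months, with log2 signal relative to the array median on the y axis and naive, sham and TBI rats on the x axis; points are rats, bars the mean and 1 SD of 4 rats. In the upper 8 panels, the higher probes with the largest differences, sham has the lowest mean with replicate 3 on top of its group, and in the lower 4 panels (RT1-A2, RT1-CE12 and both RT1-M3-1 probes) the groups overlap.

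The other class I probes were past at most 1 of the thresholds. RT1-S2 and RT1-T18 were separate between the groups, with differences of 0.42 ± 0.15 and 0.32 ± 0.14. RT1-CE7 and RT1-CE11 differed by 0.51 to 0.55 with overlapping groups. RT1-T24-3 and RT1-M6-1 differed downward, by -0.63 ± 0.33 and -0.44 ± 0.34, also with overlapping groups. RT1-CE12, RT1-N2 and the brighter RT1-M3-1 probe differed by -0.02 to 0.00, and the second RT1-CE16 probe, the brighter one, by 0.16 against 1.03 on the dimmer. Of the genes that load class I molecules, Tap1, the peptide transporter, differed by 0.72 ± 0.31 and Tapbp, tapasin, by 0.64 ± 0.26, while Tap2 differed by -0.11 and B2m, the shared light chain, by 0.20 ± 0.17. The immunoproteasome subunits Psmb9, Psmb8 and Psmb10 differed by 0.48, 0.18 and 0.07. Counting 1 probe per gene, 7 of 26 genes of class I and antigen processing were higher (1.29% over all named genes) and 0 lower, with a median of 0.23. Of 25 interferon response genes, which often accompany class I genes, 0 were past both thresholds (1.29% higher, 1.38% lower over all named genes). Irf7, Mx1 and Isg15 differed by -0.10, -0.13 and -0.02. Ifi47, an interferon-inducible gene outside that list, was higher with separate groups (0.58 ± 0.22).

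Cytokine genes were low or not different. Il1b and Il6 were well above background on 0 of 12 arrays, and Tnf, on 2 arrays of each group, was not tested. Of 22 tested cytokines, chemokines and receptors none was past the thresholds. Of the T cell genes, 10 were well above background on no TBI or sham array, among them Cd3e, Cd8a and Cd8b. Of 7 tested members Lck was higher (0.50) and Zap70 lower (-0.80), where 1.29% of all named genes were higher and 1.38% lower. Other higher genes with separate groups were Txnip, the thioredoxin inhibitor (1.12 ± 0.30), Serpina1, alpha-1 antitrypsin (0.58 ± 0.18), and Cfap157, a cilium protein. Txnip was well above background on 1 sham array and Serpina1 on 3, so both were tested only through their TBI arrays. Across the processing alternatives Txnip differed by 0.36 to 1.30 and Serpina1 by 0.20 to 0.68. Cfap157 read 3.24, 0.42, -0.05 and -0.56 in TBI and was above background on no sham array, so it was at least 2.75-fold higher, or at least 1.55-fold without TBI replicate 1. Of 17 genes of cilia and ependyma on the array 9 were tested. All 9 differed upward, against 6054 of 10509 over all named genes, with a median of 0.46, but none was past the thresholds. Foxj1, the ciliary master factor, differed by 0.93 ± 0.96. The summed signal of that list was 33.8 to 63.7 in TBI, 31.7 to 48.5 in sham and 33.7 to 89.2 in naive arrays.

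Neuronal lists were near the level of all genes. None of 40 neuron and synapse genes, 27 GABA neuron genes or 18 cortical layer genes was past the thresholds, with medians of -0.04, 0.00 and -0.15. Bdnf, the activity-dependent neurotrophin, read 1.05, 0.42, 1.16 and 2.68 in TBI and 1.32, 2.18, 1.46 and 1.66 in sham, a difference of -0.33 ± 0.36. Without TBI replicate 4 it was -0.78 and past both thresholds, and without TBI replicate 2 it was -0.03. The dopamine receptors Drd1 and Drd2 differed by -0.02 ± 0.27 and -0.16 ± 0.44, and both turned positive when sham replicate 3 was left out, as when TBI replicate 2 was. Of 27 oligodendrocyte and myelin genes only Gpr37, a receptor of maturing oligodendrocytes, was lower past the thresholds. It read 4.70, 3.99, 4.67 and 4.57 in TBI and 4.96, 4.98, 5.75 and 5.47 in sham, a difference of -0.81 ± 0.25, while Mbp, myelin basic protein, differed by -0.18 ± 0.17.

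The lower genes, 1.38% of all named genes, did not gather in 1 list. Hspa4l, a co-chaperone of the Hsp110 family, read 3.75, 3.68, 4.04 and 4.59 in TBI and 4.69, 5.02, 4.996 and 5.26 in sham, a difference of -0.97 ± 0.23 (limma, adjusted p = 0.777). Of 38 tested chaperones 1 was lower and 1 higher, and Hspa8, Hspa5 and Hsp90aa1 differed by -0.08 to -0.02. Psmd13, a lid subunit of the proteasome, read 4.61, 4.67, 4.82 and 4.72 in TBI and 4.90, 5.53, 5.43 and 6.00 in sham (-0.76 ± 0.20). Ube3a, a ubiquitin ligase, differed by -0.84 ± 0.27, but its other probes by 0.00 and -0.50. The other 46 of 48 proteasome and ubiquitin genes were within the thresholds, and the list median was 0.01.

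Eif4h, a translation initiation factor, read 5.86, 5.83, 5.92 and 6.68 in TBI and 6.82, 7.12 and 7.32 in sham, where replicate 1 was missing for a flagged spot, a difference of -1.01 ± 0.22. Ipo9, a nuclear import receptor, read 1.36, 1.80, 1.55 and 1.52 in TBI and 2.97, 2.38, 2.01 and 2.60 in sham (-0.93 ± 0.20). Mylk, myosin light chain kinase, read 4.002, 3.24, 3.87 and 3.72 in TBI and 4.14, 4.39, 4.53 and 4.67 in sham (-0.73 ± 0.19). Senp8, a NEDD8 protease, had tight TBI values of 3.18, 3.17, 3.14 and 3.08 against 3.37, 3.77, 3.91 and 4.06 in sham (-0.64 ± 0.16). In each of these but Ipo9 the naive mean lay nearer to sham than to TBI.

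Rbp4, the retinol carrier, and Mmp9, a matrix metalloproteinase, differed by -0.56 and -0.58, with separate groups, and were under a fold of 1.4 without TBI replicate 2 (-0.48) and TBI replicate 1 (-0.46). Sdhc, a subunit of succinate dehydrogenase, was the only lower gene of 49 in the respiratory chain list (-0.53 ± 0.18, or -0.47 without sham replicate 4). Cltc, clathrin heavy chain (-0.98), lacked 2 sham values and Prkacb, a catalytic subunit of protein kinase A (-0.57), also lacked 2, and the other 3 Prkacb probes differed by -0.11 to 0.32. The 4 largest negative differences, Dck, Brf2, Smoc2 and Ocrl, at -1.35, -1.25, -1.17 and -1.04, rested on sham replicate 1, which read 3.37, 4.65, 3.42 and 4.40 against at most 0.60, 1.52, 1.26 and 2.87 on the other sham arrays. Without it they differed by -0.64, -0.46, -0.58 and -0.62.

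**Figure D4:**
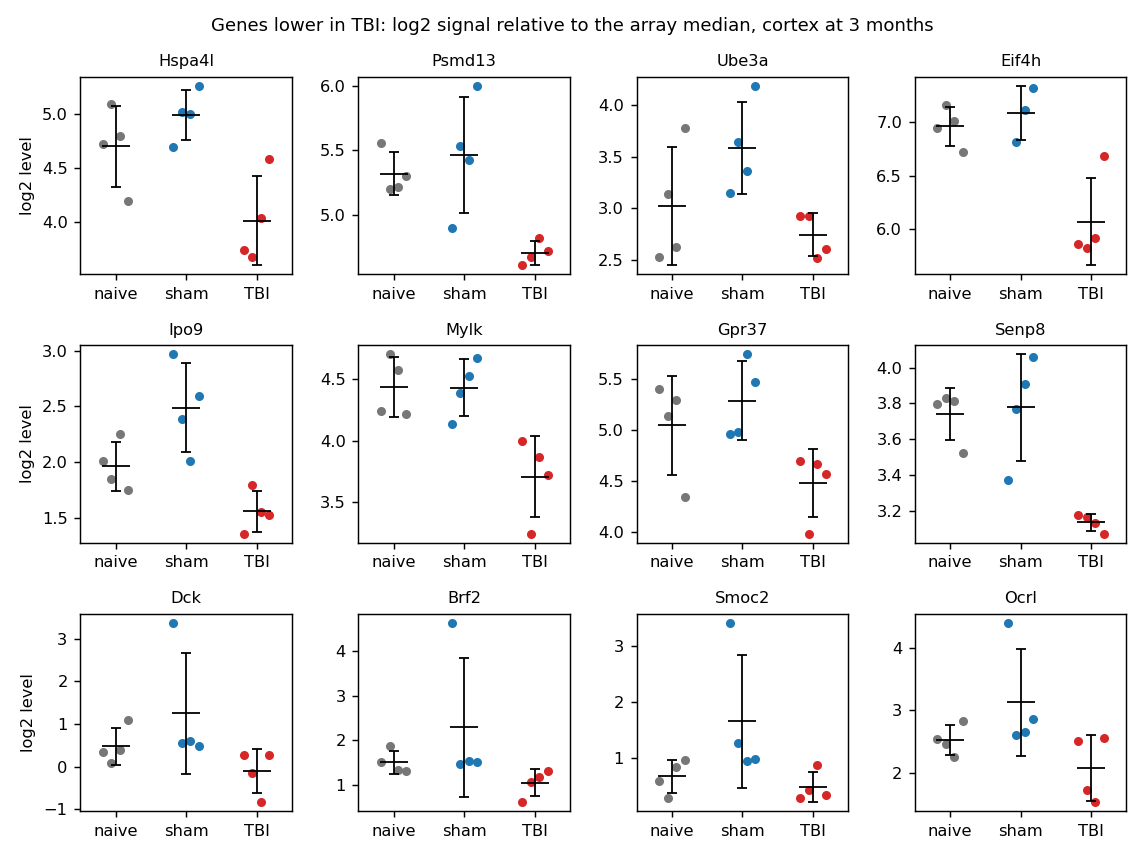
Each panel shows 1 gene that was lower in TBI, with log2 signal relative to the array median on the y axis and naive, sham and TBI rats on the x axis; points are rats (Eif4h has 3 in sham), bars the mean and 1 SD. In the upper 8 panels all TBI points lie below all sham points, and in the lowest row (Dck, Brf2, Smoc2, Ocrl) 1 sham rat lies far above the rest.

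Of the further lists chosen for this tissue, few members were past the thresholds, at counts to be read against 1.29% higher and 1.38% lower over all named genes. Apoptosis (34 tested) and immediate early genes (24) had none in either direction, with medians of 0.07 each. Toll-like receptor and NF-kB genes had 1 of 19 higher, hypoxia genes 1 of 22 higher, acute phase genes 2 higher and 1 lower of 10, and cAMP and dopamine genes 2 higher and 1 lower of 37. Axon guidance genes had 2 of 33 lower, metalloproteinases 2 of 20 lower, leukocyte extravasation genes 1 higher and 2 lower of 23, and neurotrophic factors 1 higher and 1 lower of 31. Collagen and matrix genes had 1 higher and 1 lower of 25, endothelial genes 1 of 25 higher, pericyte genes 1 of 15 lower and proliferation genes 1 of 18 lower. Among markers of blood, neutrophils, choroid plexus, striatum, hippocampus and thalamus none was past the thresholds, with medians from -0.28 to 0.23, and of 16 meningeal genes 1 was higher.

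Relative to other intervals, the 3 month cortex was among those with few calls. Calls of TBI against sham, each from limma on the 12 arrays of its interval, numbered 56 after 24 hr (0.216% of probes), 2 after 2 weeks (0.00848%), 20 after 6 months (0.0805%) and 0 after 1 year (0%). Spp1 differed by 3.88 ± 1.15 at 24 hr, rose by 5.15 ± 0.47 at 2 weeks (adjusted p = 0.00191), and differed by 1.77 ± 0.65 at 6 months and -0.30 ± 0.42 at 1 year, with at least 1 sham array above background at each. At 3 months only a bound can be given, 2.24-fold, or 1.68-fold without TBI replicate 2. The C3 difference at 3 months, 0.55 ± 0.42, was lower by value than those of the intervals before it (0.98 ± 0.44 after 24 hr and 4.09 ± 0.67 after 2 weeks) and of the next one (1.56 ± 0.71), and the last was -0.04 ± 0.36. Gfap differed by 0.94, 2.38, 1.51, 1.21 and 0.53 from 24 hr to 1 year, with errors of 0.46 to 1.06. RT1-A3 differed by 1.79, 3.39, 1.18, 0.57 and -0.38 over the same intervals.

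At 2 weeks the median of all probes was itself at 0.95, and 1 sham array, replicate 3, stood apart, so the values of that interval are relative to that shift. The difference of the TBI effect between 3 months and 2 weeks was called for 0 of 23803 probes (0%; limma, 920 at an unadjusted p under 0.05, smallest adjusted p = 0.126). Without that array the median was 0.00 and 52 probes were called, among them C3 (-3.03 ± 0.65, adjusted p = 0.033) and Ncf1, a subunit of the phagocyte oxidase (-2.24 ± 0.50, adjusted p = 0.0472), each with a smaller difference at 3 months. Spp1 was also called (adjusted p = 0.00527), but the size of its difference is not measured, since no sham array at 3 months was above background. Gfap (0.22 ± 0.90) and C1s (-0.69 ± 0.39) were not called.

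Against 6 months, 1 of 24902 probes was called (0.00402%), a probe of Hdac1l (-2.56 ± 0.38, adjusted p = 0.0271), a histone deacetylase-like gene whose brightest probe differed by -0.07 in TBI against sham at 3 months. This call was lost when any of 10 single arrays was left out. The effect on Serping1 and Gfap differed between 3 and 6 months by 0.51 ± 0.65 and 0.30 ± 0.96. The lower genes Hspa4l (-1.10 ± 0.26, adjusted p = 0.448) and Senp8 (-0.89 ± 0.18, adjusted p = 0.236) differed by 0.13 and 0.25 at 6 months, and the difference between the intervals did not pass adjustment. In the hippocampus at 3 months 2 of 14944 probes were called (0.0134%). Between the tissues, 0 of 11711 shared probes were called (0%; limma, 530 at an unadjusted p under 0.05, smallest adjusted p = 0.535). Gfap differed by -0.24 ± 0.39 in hippocampus against 1.51 ± 0.58 in cortex, and the joint fit over shared probes gave a difference of 1.65 ± 0.80 (adjusted p = 0.998).

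**Figure D5:**
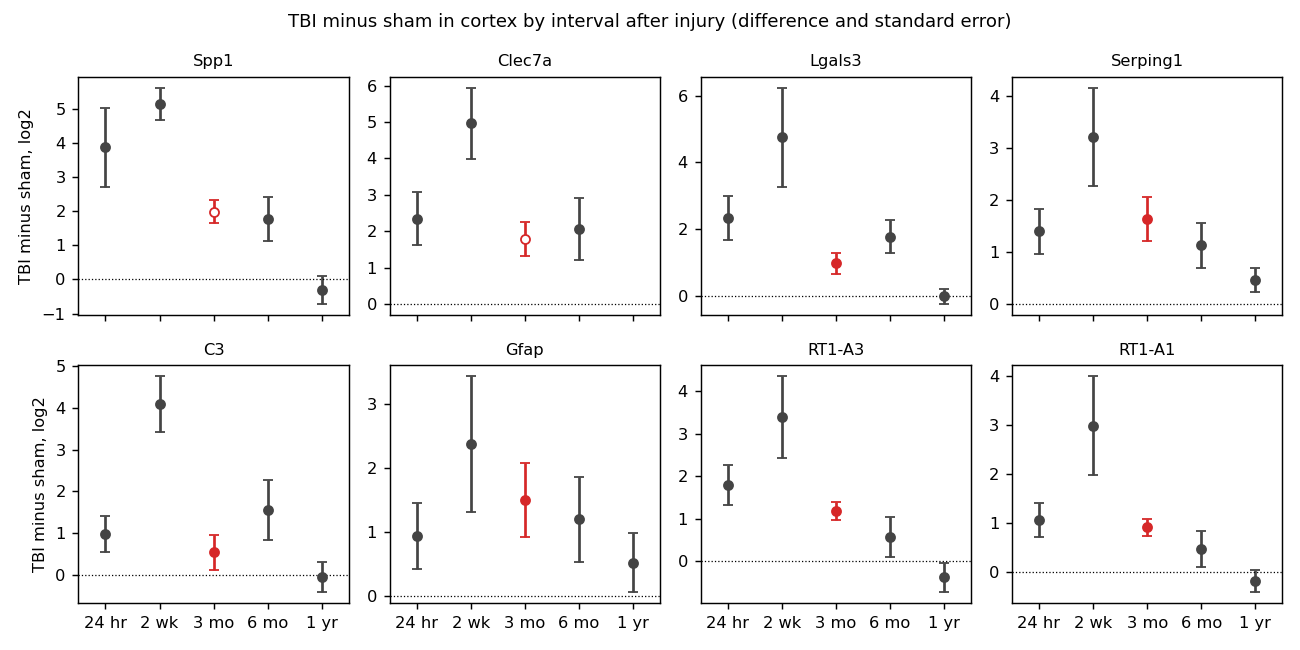
The TBI minus sham difference (log2) on the y axis is shown for 8 genes at each interval after injury on the x axis, with error bars of 1 SE and the 3 month value in red; open points have no sham array above background, and Clec7a was not tested at 1 year. The 2 week points are the highest, but all probes of the 2 week comparison were shifted by a median of 0.95, and without its sham replicate 3 the Gfap difference was not larger at 2 weeks than at 3 months. Spp1, Lgals3 and C3 were near 0 at 1 year.

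Sham and naive cortex differed more often than TBI and sham. Against naive, 94 probes were called in sham (0.441% of 21328; 83 rose and 11 fell) and 132 in TBI (0.596% of 22135; 115 rose and 17 fell), on different slides. Without sham replicate 1 these counts were 492 and 626, and without naive replicate 4, the naive array low in Ttr, 213 and 275. Rpl17l5, a ribosomal protein-like gene, rose by 1.18 in sham and 1.23 in TBI. Msx1, a homeobox gene, fell in sham (-2.15, adjusted p = 0.0407). Ttr, which choroid plexus makes in great amount, read 12.16, 12.29, 12.08 and 4.62 in naive, 10.59, 4.66, 3.74 and 4.08 in sham and 4.52, 4.46, 9.41 and 5.41 in TBI, and its part in these comparisons was not tested. Among the 33 separate higher genes the naive mean lay nearer to TBI for 15 and nearer to sham for 18, and among the 43 lower genes for 15 and 28.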

How the data were processed

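Agilent rat arrays of 1 colour measured cortical RNA. The authors deposited spot intensities from Agilent Feature Extraction (version not given in the sources used here), background-subtracted but not scaled between arrays, and a table of linear intensities per array. Replicate spots were averaged without those flagged as non-uniform, and the log2 of the deposited processed intensities was centred on each array's median. A probe was tested when well above background in all arrays of at least 1 of the groups compared. limma 3.58.1 in R 4.3.3 was fitted to the 12 cortical arrays at 3 months without a block, with p-values adjusted by Benjamini and Hochberg over all tested probes. Differences between intervals or tissues were interaction contrasts over 24 arrays. Genes were named through RefSeq accessions and read from their brightest probe. Bounds replace folds where no array of a group was above background.

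Named genes were the 12 with the largest difference in each direction past fold 1.4 and unadjusted p 0.05 with separate groups, list members meeting these conditions, genes discussed by the study, cell type markers, and the leading genes of the other contrasts; further list members and RT1 probes were named after their values were seen. The comparison and lists were chosen with earlier results of these data known. Scripts were tested on simulated data. The number of arrays limits the precision. Alternatives covered scaling, background correction, filters, models, the replicate block and leaving out each array. Results for other intervals are used only for the contrasts named. Some genes are not reported here.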

Additional observations from a re-analysis of the deposited data

Results flagged for a closer look

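Among 134 groups of 4 arrays of the named genes, 11 had 1 array far from the other 3, where chance gives about 1 in 20. Sham replicate 1 accounted for 7 of them. It was high for Dck (3.37), Brf2 (4.65), Smoc2 (3.42), Ocrl (4.40) and Ttr (10.59), and low for Aspg (-2.13), an asparaginase, and for Aqp4 (6.79), the astrocyte water channel. Sham replicate 4 was high for Alg2 (3.62).

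TBI replicate 2 was high for Aspg (2.17) and for Cebpd (4.97), and TBI replicate 4 was high for Eif4h (6.68). Naive replicate 2 held 165 spots flagged as non-uniform, against 2 to 10 on the other naive arrays. The effect of TBI differed between 3 and 6 months for 1 probe, that of Hdac1l (-2.56 ± 0.38), by the interaction test in limma. Its other probe at 3 months differed by -0.07.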

How the results depend on the processing

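No probe was called in TBI against sham under any scaling, background or filter setting; arrayWeights called 1 (Abcd2, -0.96, adjusted p = 0.0406), and leaving out 1 array called 0 to 4, 4 without sham replicate 3 and 1 without sham replicate 4. The signs of Spp1, Clec7a, Serping1, Gfap, RT1-CE3, RT1-A3 and RT1-A1 were kept under every alternative; those of Drd1, Drd2, Stat3, Creb5, Gad1, Slc17a7 and Ttr were not. Probes higher past both thresholds numbered 127 with normexp (offset 50, on median signals since no mean signal column was used, chosen after seeing the data), 158 when above background in every array and 140 with all cortex arrays in 1 model, and leave-one-out gave 143 to 473 (143 without sham replicate 1, 473 without sham replicate 2, 466 without sham replicate 3, 450 without TBI replicate 1, 470 without TBI replicate 4). Lower probes numbered 230, 828 without a filter, 134 and, with arrayWeights, 1164, and 273 to 952 on leaving out 1 array (952 without sham replicate 1, 781 without TBI replicate 4).

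Without 1 array, sham against naive gave 32 to 51 calls when naive replicate 1, 2 or 3 or sham replicate 2 or 3 was left out, and TBI against naive 31 to 85 for every array but sham replicate 1 (626) and naive replicate 4 (275). Sham against naive gave 459 calls (75th percentile), 418 (quantile), 402 (the authors' table), 28 (normexp), 5 (no filter), 57 (above background in every array), 57 (all cortex arrays) and 875 (arrayWeights), and 32 to 492 on leaving out 1 array. TBI against naive gave, in that order, 661, 517, 615, 25, 12, 50, 58 and 1981, with 333 from the 2 groups alone, 81 with an intensity trend, 81 with flagged spots kept (chosen after seeing the data) and 31 to 626 on leaving out 1 array. The difference to 2 weeks gave 31 (75th percentile), 23 (quantile), 1050 (arrayWeights) and 0 to 52 on leaving out 1 array; that to 6 months gave 0 (quantile), 0 (no filter), 331 (arrayWeights) and 0 to 18, 18 without sham replicate 1 and 8 without TBI replicate 4 of 3 months; that to hippocampus gave 1 (arrayWeights) and otherwise 0. The cause of these shifts was not tested.

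Replicate numbers did not pair the samples: deviations of same-numbered TBI and sham arrays correlated at -0.02, -0.06, 0.03 and 0.13, and 1 of 4 TBI arrays correlated best with its own number. With the replicate number as a block, TBI against sham had 0 calls, 303 higher and 377 lower probes past both thresholds, sham against naive 84 calls, TBI against naive 52, and the 3 contrasts with 2 weeks, 6 months and hippocampus 0 each. Slide could not be fitted as a block since each group lay on 1 slide. Without sham replicate 1 the median of all probes moved from 0.03 to -0.10, without a filter to -0.09 and with arrayWeights to -0.09.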
